A study of Mus musculus with 16 samples.

Results

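Chromatin accessibility was described at 7 mouse genes whose human counterparts are recurrently mutated in B-cell lymphoma and which encode enzymes that write or remove marks on histones or DNA: Ezh2, Kmt2d, Kmt2c, Crebbp, Ep300, Setd2 and Tet2. A peak of the deposited count table belonged to one of them when the nearest protein-coding RefSeq gene span to its middle, at most 50 kb away, was that gene. This gave 53 of the 82188 peaks: 10 at Ezh2, 6 at Kmt2d, 8 at Kmt2c, 4 at Crebbp, 10 at Ep300, 5 at Setd2 and 10 at Tet2. By position, 16 of them had their middle within 1 kb of the transcription start, 19 lay elsewhere inside the gene, 17 lay upstream of it and 1 lay past its 3′ end.

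The 16 libraries were made by Omni-ATAC, an assay in which Tn5 transposase tags accessible DNA for sequencing, from the spleens of C57BL/6 mice aged 8 to 10 weeks. There were 4 groups of 4 libraries: Smarca4+/- (HET) CC, Smarca4+/+ (WT) CC, HET CB and WT CB. The product of Smarca4 is BRG1, the motor subunit of BAF remodelling complexes, and the series set germinal center B cells with a lost Smarca4 allele against wild-type ones. The labels do not say what CB and CC stand for, and they are taken to mean centroblasts and centrocytes, the dividing dark zone cells and the selected light zone cells of the germinal center. No sort gate, Cre driver or deleted part of Smarca4 is given. Whether each replicate is its own animal is not stated either. The p-values therefore rest on the spread among these samples, which may be technical.

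The 7 enzymes act on neighbouring steps of gene control. EZH2 is the catalytic subunit of the Polycomb repressive complex PRC2 and methylates histone H3 at lysine K27, a mark of silenced genes that germinal center B cells need in order to hold back differentiation. KMT2D and KMT2C methylate H3K4 at enhancers within COMPASS-type complexes, and the paralogous acetyltransferases CREBBP and EP300 acetylate H3K27 at enhancers and promoters, where they oppose EZH2 and BCL6. SETD2 places trimethylation of H3K36 along transcribed gene bodies, and TET2 oxidizes 5-methylcytosine and so promotes loss of DNA methylation.

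The start windows of all 7 genes overlapped an accessible peak, and 3 of these windows are printed because their peaks carry the results below. They are RefSeq sequences of build GRCm38.p6, which corresponds to mm10, running 5′ to 3′ on the strand of the gene from 250 bases before the start to base 20 from it. In the Ezh2 window (chr6:47595011-47595280, minus strand), capitals mark the 3 CCAAT or ATTGG boxes and the 1 match to TTTNGCGC, a form of the E2F motif.
Ezh2: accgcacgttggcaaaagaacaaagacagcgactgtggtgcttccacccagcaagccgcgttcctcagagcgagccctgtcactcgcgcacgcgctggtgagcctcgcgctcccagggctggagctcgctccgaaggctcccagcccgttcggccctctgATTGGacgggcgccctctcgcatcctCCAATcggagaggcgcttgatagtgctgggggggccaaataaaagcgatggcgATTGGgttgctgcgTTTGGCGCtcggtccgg
In the Kmt2c window (chr5:25498764-25499033, minus strand), capitals mark the 12 matches to GGGCGG or its complement, the GC box to which SP factors bind, some of which overlap.
Kmt2c: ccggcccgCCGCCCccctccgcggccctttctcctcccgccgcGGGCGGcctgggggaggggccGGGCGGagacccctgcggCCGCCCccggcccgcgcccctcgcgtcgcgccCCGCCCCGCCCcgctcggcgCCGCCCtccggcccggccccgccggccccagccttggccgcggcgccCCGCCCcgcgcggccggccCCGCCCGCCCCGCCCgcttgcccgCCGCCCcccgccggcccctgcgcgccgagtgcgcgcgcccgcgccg
In the Tet2 window (chr3:133544371-133544640, minus strand), capitals mark a unit of 22 bases that occurs in 4 copies.
Tet2: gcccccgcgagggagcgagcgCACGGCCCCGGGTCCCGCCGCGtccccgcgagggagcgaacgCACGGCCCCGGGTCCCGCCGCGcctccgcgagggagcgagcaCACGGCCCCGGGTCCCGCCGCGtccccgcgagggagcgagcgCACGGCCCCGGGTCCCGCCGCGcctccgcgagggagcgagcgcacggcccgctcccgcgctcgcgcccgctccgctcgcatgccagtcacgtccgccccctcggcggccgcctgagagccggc
Among 32851 RefSeq windows of 270 bases, searched on both strands, CCAAT occurred in 35.4%, GGGCGG in 34.1% and TTTNGCGC in 1.24%. The Ezh2 window was the only member window with CCAAT or TTTNGCGC and the only one without GGGCGG. No member window held TGACGTCA (1.73% of windows), TGANTCA (7.23%), CCGGAAG (8.08%) or TATAAA (12.9%). The windows of Kmt2c and Tet2 held 55 and 54 CpG dinucleotides and that of Ezh2 27, against a median of 6 over all windows. These matches describe letters and were not tested as binding sites.

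Library totals were 5310327 to 7474760 counts in HET CC, 3494356 to 3750936 in WT CC, 38716281 to 51011923 in HET CB and 31696941 to 38798802 in WT CB. Depth and the CC and CB labels cannot be told apart. At a member peak a library held between 0 and 2473 counts. Only the Ezh2 peak 10.6 kb upstream was at 0 in a library, and 15 of the 53 peaks had fewer than 10 counts in at least 1 library. The 9 peaks of Smarca4 itself summed to 140 to 165 CPM in HET CC, 153 to 185 CPM in WT CC, 175 to 180 CPM in HET CB and 183 to 196 CPM in WT CB (HET against WT, adjusted p = 0.375 in CC and 0.413 in CB), which does not check the genotype because the deleted part is not given. CPM are depth-normalised read counts, with library sizes scaled by the trimmed mean of M-values. Every adjusted p is from edgeR's quasi-likelihood test, adjusted by Benjamini and Hochberg's method over the whole table, with a threshold of 0.05.

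The labels were set against marker loci, each the sum of a gene's peaks. All 7 B cell markers had peaks, and their summed accessibility was 857 to 969 CPM in HET CC, 908 to 1030 CPM in WT CC, 994 to 1010 CPM in HET CB and 1030 to 1100 CPM in WT CB. In WT, CC was lower than CB at 5 of 6 germinal center markers and 3 of 4 dark zone markers, but also at Cd83 and Cd86, 2 of the 3 measured light zone markers, while Nfkbia was higher. In HET, CC was lower at 5 of 6 germinal center markers, with Bcl6 higher, and at 3 of 4 dark zone markers. Of the light zone loci in HET, Nfkbia was higher, Cd86 lower and Cd83 not called (-0.01, adjusted p = 0.79). The light zone loci do not bear out the reading of CC as centrocytes, although the lower dark zone loci go with it. T cell markers were higher in CC in WT at 7 of 8 measured loci, with a median log2 difference of 1.82, as were 4 of 6 NK cell and 5 of 5 measured myeloid markers. The remaining T cell locus, Cd4, was lower in WT CC (-0.74, adjusted p = 0.000716). Over all genes, 63.3% were called between CC and CB in WT, in either direction. Summed T cell marker accessibility was 229 to 301 CPM in HET CC, 301 to 381 CPM in WT CC, 105 to 112 CPM in HET CB and 122 to 131 CPM in WT CB, with no peak at Lck or Trac. NK cell markers summed to 228 to 236 CPM in HET CC, 236 to 285 CPM in WT CC, 182 to 191 CPM in HET CB and 181 to 193 CPM in WT CB. Most of these sums is Klrb1c, with means of 168 CPM in HET CC, 176 in WT CC, 174 in HET CB and 172 in WT CB. Klrb1c was not called between CC and CB, and the median log2 difference over the 6 NK loci was 2.53 in HET and 2.37 in WT. Myeloid markers summed to 172 to 210 CPM in HET CC, 200 to 208 CPM in WT CC, 95.9 to 99.8 CPM in HET CB and 105 to 111 CPM in WT CB, with no peak at Lyz2 or S100a8. The part of other cell types in the differences between CC and CB below was not tested, and in these bulk libraries a change in accessibility per cell and a change in the mix of cells cannot be told apart.

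Between CC and CB, peaks at the starts of these genes were more often higher in CC than lower, and the other peaks more often lower. Values of CC and CB did not overlap at 25 peaks in HET (beside 51.5% of all peaks) and at 31 in WT (beside 49.1%). In HET, accessibility was higher in CC at 13 of the 53 peaks and lower at 17, beside 30.8% higher and 28.1% lower over all 82188 peaks (58.8% called). In WT it was higher in CC at 13 and lower at 22, beside 30.2% higher and 27.7% lower (57.9% called). Of these calls, 26 peaks had the same direction in both genotypes, 11 higher and 15 lower, and none was called in opposite directions. How often the genotypes matched in this way over all peaks was not counted, so this match cannot be read as particular to these loci.

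Of the 16 start peaks, 6 were higher in CC and 2 lower in HET, and 8 were higher and 3 lower in WT. Start peaks of all genes were higher in 28.6% and lower in 28.9% of cases in HET, and higher in 33.6% and lower in 23.6% in WT. Of the other 37 peaks, 7 were higher and 15 lower in HET, and 5 were higher and 19 lower in WT. Such peaks of all genes were higher in 29.1% and lower in 28.7% in HET, and higher in 27.6% and lower in 29.3% in WT. The median log2 difference was 0.17 at start peaks and -0.18 at the others in HET, and 0.24 at start peaks and -0.54 at the others in WT. Start peaks were also the taller ones, with a median of 27.8 CPM in HET CC, 27.75 CPM in WT CC, 26.5 CPM in HET CB and 25.95 CPM in WT CB. The other peaks had medians of 5.39 CPM in HET CC, 4.92 CPM in WT CC, 7.29 CPM in HET CB and 7.57 CPM in WT CB. Under a scaling that lets the shift between libraries depend on peak height, chosen after seeing the data, 8 start peaks were higher and 0 lower in HET, and 6 and 0 in WT. Under it 7 other peaks were higher and 12 lower in HET, and 3 and 15 in WT. The medians were then 0.19 at start peaks and -0.12 at the others in HET, and 0.06 and -0.34 in WT. This scaling called 25.8% of the whole table higher and 27% lower in HET, and 25.2% higher and 26.7% lower in WT. Shares for start peaks of all genes were not computed under it or in the thinned libraries below. In libraries thinned to the size of the smallest, 5 start peaks were higher and 1 lower in each genotype, and elsewhere 3 were higher and 10 lower in HET and 4 and 14 in WT, beside 22.1% higher and 19.4% lower over all peaks in HET and 25.5% and 23.1% in WT.

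Start peaks held 58.9 ± 2.63% of the counts of the 53 peaks in HET CC, 61.8 ± 2.03% in WT CC, 53.8 ± 0.61% in HET CB and 53.4 ± 1.22% in WT CB (SD, n = 4 each). Every CC library, from 56.1 to 64.1%, lay above every CB library, from 52.4 to 55.1%. Over all assigned peaks the share was 41.7 ± 0.377% in HET CC, 42.6 ± 0.371% in WT CC, 39.5 ± 0.284% in HET CB and 39.0 ± 0.174% in WT CB. There too every CC library, from 41.3 to 42.9%, lay above every CB library, from 38.8 to 39.8%. The separation is thus not particular to the 53 peaks.

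**Figure D1:**
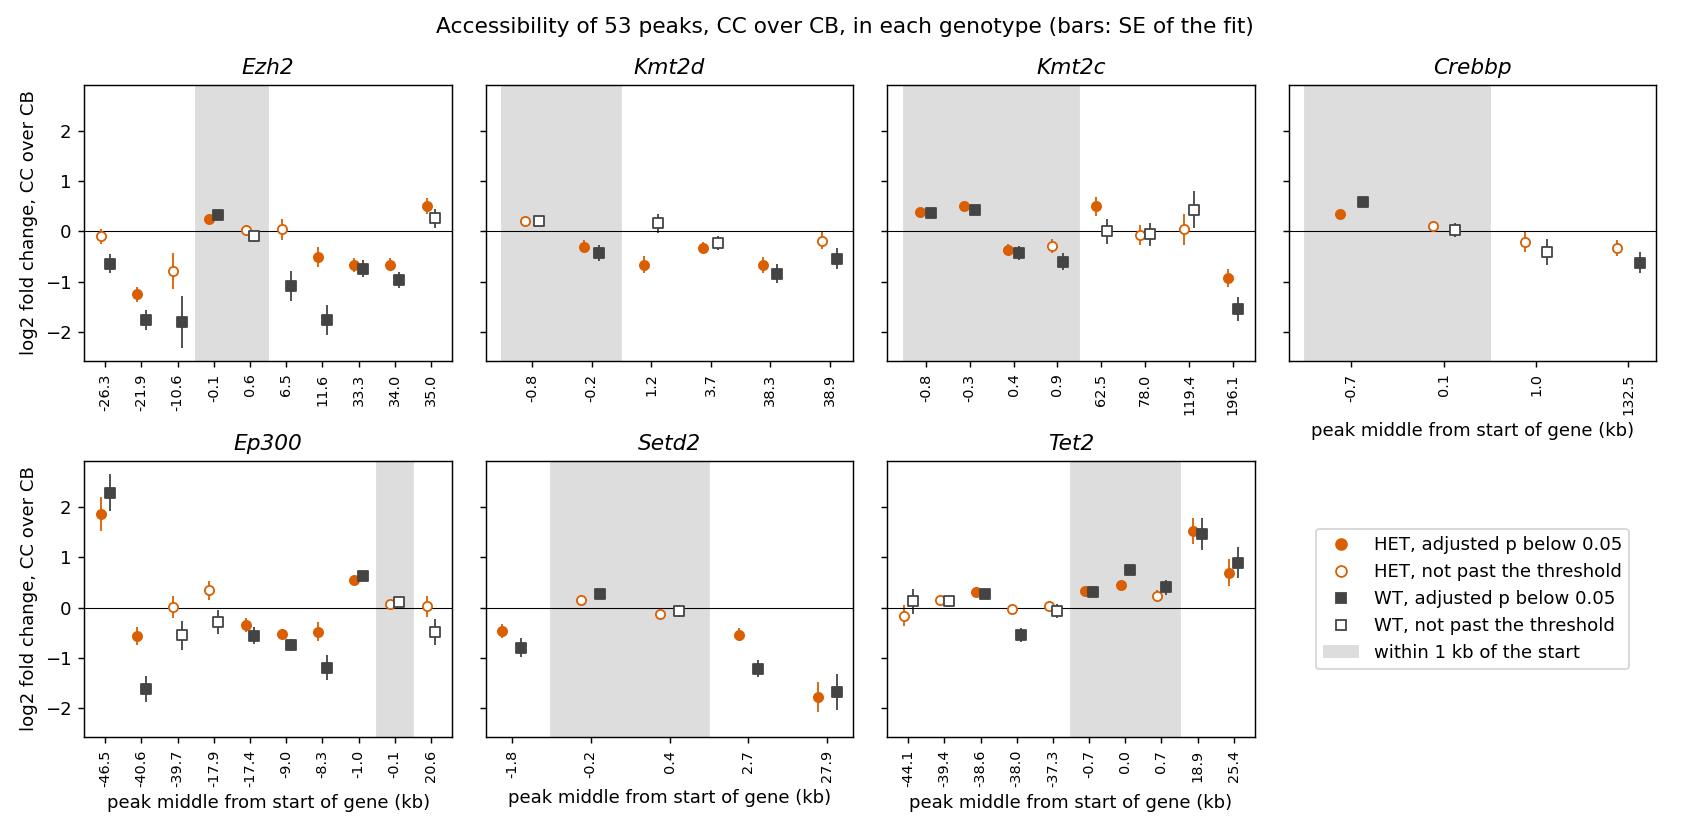
Log2 fold change of CC over CB (vertical axis) at each of the 53 peaks, ordered by distance from the start of the gene in kb (horizontal axis, not to scale), with circles for HET, squares for WT, bars for the SE of the fit and filled symbols for an adjusted p below 0.05. In WT, shaded start peaks mostly sit above 0, with 8 of 16 called higher, beside 33.6% of start peaks of all genes. Most other peaks sit below 0 in WT, with 19 of 37 called lower, beside 29.3% of such peaks of all genes. In HET, 6 of 16 start peaks were called higher, beside 28.6%, and 15 of 37 others lower, beside 28.7%. At Tet2, 6 of 10 peaks were called higher in WT, beside 30.2% of all peaks.

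Ezh2 (chr6:47530274-47595270, minus strand) had 10 peaks. Between CC and CB, 2 of them were higher and 4 lower in HET, and 1 was higher and 7 were lower in WT. The start peak (chr6:47594847-47595347, middle 67 bp upstream) lies beside the noncoding RNA gene F830010H11Rik, 112 bp from its middle. It held 67.3, 55.02, 57.96 and 53.1 CPM in HET CC and 80.04, 58, 60.6 and 59.1 CPM in WT CC. It held 50.3, 48.4, 51.6 and 45.9 CPM in HET CB and 50.2, 57.2, 50.8 and 46.9 CPM in WT CB. Every CC library lay above every CB library of its genotype, with a log2 difference of 0.25 ± 0.0738 (adjusted p = 0.00348) in HET and 0.33 ± 0.0814 (adjusted p = 0.00041) in WT (a ± after a log2 difference is the SE of the fit, and one after CPM is the SD of 4 libraries), but under the height-dependent scaling the difference was 0.05 in HET (adjusted p = 0.596) and 0.03 in WT (adjusted p = 0.791). Without HET CC replicate 1 the HET difference was 0.17 (adjusted p = 0.0575), and in thinned libraries 0.18 (adjusted p = 0.142). The second start peak, 578 bp into the gene, differed by 0.03 in HET and -0.10 in WT and passed in neither.

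Of the 8 Ezh2 peaks outside the start class, 4 were lower in CC in HET and 7 in WT. The element 21.9 kb upstream (chr6:47616650-47617150) held 4.64, 3.69, 5.47 and 4.97 CPM in HET CC and 3.61, 3.53, 3.1 and 3.01 CPM in WT CC. It held 10.6, 10.95, 10.9 and 11.5 CPM in HET CB and 10.3, 12.3, 11.2 and 11.3 CPM in WT CB. No CC library came near a CB library, and the log2 difference was -1.25 ± 0.154 (adjusted p = 6.25e-10) in HET and -1.76 ± 0.204 (adjusted p = 9.68e-11) in WT. A weaker element 10.6 kb upstream (chr6:47605331-47605831) held 0.34, 2.64, 1.32 and 0.31 CPM in HET CC and 0.56, 0.88, 0 and 1.09 CPM in WT CC. It held 2.15, 2.32, 1.96 and 1.96 CPM in HET CB and 2.48, 2.54, 1.88 and 2.0 CPM in WT CB. It fell by 1.80 on the log2 scale in WT CC against WT CB (SE 0.517, adjusted p = 0.00236), while 3 HET CC libraries lay below the HET CB range and 1 above it (-0.78, adjusted p = 0.0553). Without HET CC replicate 2, the highest of its group, the HET difference was -1.73 (adjusted p = 0.000967), and under the height-dependent scaling it was -1.80 (adjusted p = 1.37e-05).

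Inside Ezh2, 2 elements at 6.5 and 11.6 kb from the start were low in WT CC but not, or less, in HET CC. The one at 6.5 kb averaged 4.16 ± 1.22 CPM in HET CC and 2.16 ± 1.21 CPM in WT CC. It averaged 4.12 ± 0.268 CPM in HET CB and 4.62 ± 0.495 CPM in WT CB, with a CC against CB difference of 0.04 ± 0.207 (adjusted p = 0.892) in HET and -1.08 ± 0.293 (adjusted p = 0.00131) in WT. The one at 11.6 kb averaged 3.67 ± 0.646 CPM in HET CC and 1.74 ± 1.3 CPM in WT CC. It averaged 5.25 ± 0.469 CPM in HET CB and 5.95 ± 0.513 CPM in WT CB, with differences of -0.51 ± 0.203 (adjusted p = 0.0275) in HET, a call lost without HET CB replicate 2 or 4 or HET CC replicate 2 or 3, and -1.76 ± 0.294 (adjusted p = 9.05e-07) in WT. The interaction, which tests the difference between the 2 genotypes, gave 1.12 ± 0.366 (adjusted p = 0.178) at 6.5 kb and 1.25 ± 0.381 (adjusted p = 0.145) at 11.6 kb and passed at neither. A neighbouring trio lies 33 to 35 kb into the gene. There, the peaks at 33.3 and 34.0 kb were lower in CC, at log2 differences of -0.66 and -0.66 in HET and -0.74 and -0.97 in WT. The peak at 35.0 kb (chr6:47559748-47560248), about 1 kb away, held 5.85, 8.18, 6.8 and 7.61 CPM in HET CC and 8.62, 5.0, 7.05 and 6.57 CPM in WT CC. It held 4.63, 5.22, 4.94 and 5.41 CPM in HET CB and 6.05, 5.21, 6.02 and 5.52 CPM in WT CB. It was higher in CC in HET at 0.50 ± 0.163 (adjusted p = 0.00682) with no overlap between HET groups, and was not called in WT at 0.26 ± 0.194 (adjusted p = 0.257), where the groups overlapped. The HET call ended in thinned libraries (0.48, adjusted p = 0.148).

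At Kmt2d (chr15:98831669-98874077, minus strand) no peak was called higher in CC in either genotype, and 4 of 6 were lower in HET and 3 of 6 in WT. The start peak (chr15:98871115-98871615, middle 160 bp upstream) held 11.2, 9.37, 8.68 and 9.93 CPM in HET CC and 7.23, 9.13, 13.5 and 9.3 CPM in WT CC. It held 12.3, 12.1, 11.4 and 12.4 CPM in HET CB and 12.8, 13.2, 14.1 and 12.6 CPM in WT CB. WT CC replicate 3 lay inside the WT CB range, and the differences were -0.30 ± 0.13 (adjusted p = 0.0408) in HET and -0.43 ± 0.153 (adjusted p = 0.0144) in WT. Those calls ended without WT CC replicate 1 in WT (-0.30, adjusted p = 0.119) and without HET CB replicate 1, 2 or 4 or HET CC replicate 2, 3 or 4 in HET. The height-dependent scaling left -0.04 in HET and -0.11 in WT, and both calls also ended in thinned libraries, at -0.26 and -0.42. The taller neighbour 788 bp upstream averaged 28.3 ± 2.65 CPM in HET CC and 28.8 ± 5.35 CPM in WT CC. It averaged 24.5 ± 1.07 CPM in HET CB and 24.8 ± 1.94 CPM in WT CB and passed in neither genotype (0.20 in HET and 0.21 in WT, adjusted p = 0.0534 in HET and 0.0798 in WT), although it did in both under the height-dependent scaling (0.33 in HET and 0.32 in WT).

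Near the 3′ end of Kmt2d, the peak 38.3 kb from the start (chr15:98832627-98833127) held 7.22, 9.24, 5.29 and 6.67 CPM in HET CC and 10.6, 5.89, 3.95 and 6.02 CPM in WT CC. It held 11.1, 11.99, 10.1 and 12.7 CPM in HET CB and 13.1, 10.8, 11.5 and 12.03 CPM in WT CB. The groups did not overlap within a genotype, with -0.67 ± 0.155 (adjusted p = 0.000217) in HET and -0.84 ± 0.191 (adjusted p = 0.000157) in WT. This peak and its neighbour at 38.9 kb lie 1369 and 830 bp from Prkag1, a subunit gene of AMP-activated protein kinase, and may belong to either gene. The peak 1.2 kb into Kmt2d was lower in CC in HET at -0.66 ± 0.172 (adjusted p = 0.000925) but not in WT at 0.16 ± 0.187 (adjusted p = 0.467), with an interaction of -0.82 ± 0.258 (adjusted p = 0.159).

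Kmt2c (chr5:25271795-25498855, minus strand), the paralog of Kmt2d, had 2 peaks upstream of its start that were higher in CC in both genotypes. The start peak (chr5:25498841-25499341, middle 308 bp upstream, over the GC-box window printed above) held 43.3, 39.7, 46.6 and 44.1 CPM in HET CC and 40.6, 40.9, 35.8 and 42.1 CPM in WT CC. It held 31.4, 29.7, 31.3 and 29.3 CPM in HET CB and 30.5, 30.3, 28.9 and 28.8 CPM in WT CB. All CC libraries were above all CB libraries, with 0.51 ± 0.0718 (adjusted p = 1.99e-08) in HET and 0.43 ± 0.084 (adjusted p = 1.59e-05) in WT. Its upstream neighbour at 834 bp, 180 bp from the noncoding gene 4831440E17Rik, was higher by 0.38 in HET and 0.37 in WT, although the WT difference was 0.09 under the height-dependent scaling (adjusted p = 0.327).

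Just inside Kmt2c the direction turned. The peak 413 bp downstream averaged 12.9 ± 2.79 CPM in HET CC and 11.5 ± 1.88 CPM in WT CC. It averaged 16.5 ± 0.683 CPM in HET CB and 15.4 ± 0.425 CPM in WT CB, with CC lower at -0.36 ± 0.117 (adjusted p = 0.00625) in HET and -0.43 ± 0.144 (adjusted p = 0.0091) in WT. The next, at 914 bp, was lower in WT at -0.60 ± 0.166 (adjusted p = 0.0016) and missed the threshold in HET at -0.29 ± 0.132 (adjusted p = 0.0503). The calls at 413 bp in HET, at 413 bp in WT and at 914 bp in WT were lost under the height-dependent scaling, at -0.10, -0.11 and -0.28. They also ended without HET CC replicate 1, WT CC replicate 3 and WT CC replicate 4 in turn, and the WT call at 413 bp in thinned libraries (-0.29). With DESeq2 the peak at 914 bp also passed in HET (-0.31, adjusted p = 0.0122). Deep in the gene, the element 196 kb from the start (chr5:25302463-25302963) held 3.44, 5.41, 4.91 and 4.81 CPM in HET CC and 4.45, 1.77, 3.66 and 2.19 CPM in WT CC. It held 9.47, 8.3, 8.94 and 8.83 CPM in HET CB and 7.56, 9.72, 7.57 and 10.3 CPM in WT CB. It was lower in all CC libraries, at -0.92 ± 0.175 (adjusted p = 9.78e-06) in HET and -1.53 ± 0.239 (adjusted p = 1.91e-07) in WT. The peaks at 62.5, 78.0 and 119 kb were low, averaging at most 6.63 CPM in any group, and 1 of them was called, at 62.5 kb in HET (0.50, adjusted p = 0.0206), a call lost without HET CB replicate 1 or HET CC replicate 2 or 4 and in thinned libraries (adjusted p = 0.0601). Under the height-dependent scaling the sign at 119 kb turned and the peak was called lower in CC, at -1.17 in HET (adjusted p = 0.000766, against 0.04 before) and -0.82 in WT (adjusted p = 0.0363, against 0.43 before).

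Crebbp (chr16:4081334-4213957, minus strand) had the fewest peaks, and only its upstream start peak was called in both genotypes. That peak (chr16:4213855-4214355, middle 701 bp upstream) held 33.7, 34.04, 36.4 and 34.5 CPM in HET CC and 41.96, 43.3, 35.5 and 36.9 CPM in WT CC. It held 25.1, 27.9, 27.8 and 27.95 CPM in HET CB and 26.98, 25.3, 28.9 and 24.4 CPM in WT CB. All CC libraries lay above all CB libraries, with 0.35 ± 0.0798 (adjusted p = 0.000181) in HET and 0.58 ± 0.09 (adjusted p = 1.95e-07) in WT. The peak over the start itself (chr16:4213099-4213599, 55 bp downstream) held 23.1, 15.04, 20.01 and 15.2 CPM in HET CC and 13.9, 23.6, 17.8 and 17.8 CPM in WT CC. It held 16.2, 16.2, 16.99 and 18.2 CPM in HET CB and 17.99, 20.1, 16.97 and 16.5 CPM in WT CB. Here the groups overlapped and no difference was detectable, at 0.10 ± 0.115 (adjusted p = 0.484) in HET and 0.03 ± 0.134 (adjusted p = 0.875) in WT, although HET passed under the height-dependent scaling (0.34, adjusted p = 0.0128). The peak past the 3′ end (chr16:4080626-4081126), 3036 bp from Trap1, a mitochondrial chaperone gene, held 5.33, 5.67, 7.55 and 4.66 CPM in HET CC and 4.45, 5.0, 4.23 and 6.02 CPM in WT CC. It held 6.73, 7.77, 7.11 and 7.29 CPM in HET CB and 8.4, 6.53, 8.66 and 6.68 CPM in WT CB. It was lower in WT CC at -0.62 ± 0.208 (adjusted p = 0.00872) and not called in HET at -0.33 ± 0.167 (adjusted p = 0.0818), where it passed without HET CC replicate 3 (-0.47, adjusted p = 0.0265). The WT call ended in thinned libraries (-0.48, adjusted p = 0.121) and under the height-dependent scaling (-0.44, adjusted p = 0.0749).

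Ep300 (chr15:81586209-81652077, plus strand) had 9 of its 10 peaks upstream of the start. The start peak (chr15:81585860-81586360, middle 104 bp upstream) held 40.9, 34.04, 37.8 and 28.4 CPM in HET CC and 43.6, 28.3, 38.6 and 48.98 CPM in WT CC. It held 34.2, 33.3, 33.3 and 34.2 CPM in HET CB and 38.8, 38.7, 35.97 and 35.2 CPM in WT CB. Like the start peak of its paralog, it showed no detectable CC against CB difference, at 0.06 ± 0.087 (adjusted p = 0.597) in HET and 0.11 ± 0.0969 (adjusted p = 0.353) in WT, and passed in WT only without WT CC replicate 2 (0.24, adjusted p = 0.0314). The Ep300 peak 1047 bp upstream, just outside the start class, was its tallest in CC but not in CB, with 49.5, 44.9, 52.1 and 38.5 CPM in HET CC and 55.3, 55.4, 55.5 and 53.6 CPM in WT CC. It held 31.5, 31.8, 30.6 and 32.6 CPM in HET CB and 35.96, 35.3, 36.5 and 34.2 CPM in WT CB. It was higher in CC by 0.54 ± 0.0718 (adjusted p = 4.26e-09) in HET and 0.63 ± 0.0786 (adjusted p = 7.76e-10) in WT with no overlap.

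Farther upstream of Ep300, 2 elements about 6 kb apart went opposite ways. The outermost (chr15:81539490-81539990, 46.5 kb upstream) held 2.06, 2.64, 3.4 and 3.1 CPM in HET CC and 7.5, 1.77, 2.54 and 2.46 CPM in WT CC. It held 0.79, 0.72, 0.86 and 0.7 CPM in HET CB and 0.82, 0.78, 0.51 and 0.83 CPM in WT CB. This was the largest rise among the 53 peaks, 1.86 ± 0.34 (adjusted p = 4.86e-06) in HET and 2.28 ± 0.376 (adjusted p = 6.27e-07) in WT, at a low level, and under the height-dependent scaling it was 0.28 in HET (adjusted p = 0.479) and 0.65 in WT (adjusted p = 0.123). Without WT CC replicate 1, the highest library, the WT difference was 1.62 and still passed. The next (chr15:81545332-81545832, 40.6 kb upstream) held 4.13, 6.73, 4.53 and 4.04 CPM in HET CC and 3.33, 3.83, 1.97 and 1.09 CPM in WT CC. It held 6.84, 7.41, 7.22 and 7.68 CPM in HET CB and 8.43, 6.96, 8.2 and 7.62 CPM in WT CB. It was lower in every CC library, at -0.56 ± 0.177 (adjusted p = 0.00543) in HET and -1.62 ± 0.253 (adjusted p = 1.92e-07) in WT, with an interaction of 1.06 ± 0.327 (adjusted p = 0.149) that did not pass. The HET difference was -0.63 in thinned libraries (adjusted p = 0.0501). A pair of peaks 9.0 and 8.3 kb upstream was lower in CC, at -0.53 and -0.48 in HET and -0.74 and -1.19 in WT. The HET call at 8.3 kb ended without HET CB replicate 4 or HET CC replicate 1 or 3 and under the height-dependent scaling (-0.40).

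At Setd2 (chr9:110532500-110618633, plus strand) 3 of 5 peaks were lower in CC in each genotype, all of them away from the start, and 1 was higher in WT. The start peak (chr9:110532142-110532642, middle 205 bp upstream) held 55.7, 54.6, 57.01 and 49.8 CPM in HET CC and 59.2, 64.2, 47.4 and 69.8 CPM in WT CC. It held 49.1, 47.1, 51.4 and 48.1 CPM in HET CB and 49.01, 56.2, 44.4 and 51.7 CPM in WT CB. The groups overlapped in both genotypes, with 0.15 ± 0.0734 (adjusted p = 0.0764) in HET and 0.26 ± 0.0813 (adjusted p = 0.00521) in WT, and the WT sign turned to -0.02 (adjusted p = 0.819) under the height-dependent scaling. Without WT CC replicate 4 the WT difference was 0.18 (adjusted p = 0.0752), and in thinned libraries 0.21 (adjusted p = 0.0591). Inside the gene, the element 27.9 kb from the start (chr9:110560226-110560726) held 0.69, 1.32, 0.19 and 2.33 CPM in HET CC and 1.11, 1.47, 1.97 and 0.55 CPM in WT CC. It held 4.12, 4.34, 4.19 and 3.75 CPM in HET CB and 3.99, 4.33, 3.99 and 3.99 CPM in WT CB. It was lower in every CC library, at -1.78 ± 0.293 (adjusted p = 5.91e-07) in HET and -1.68 ± 0.356 (adjusted p = 5.7e-05) in WT. The peaks 2.7 kb into the gene and 1.8 kb upstream were also lower in CC, at -0.54 and -0.46 in HET and -1.21 and -0.80 in WT. Under the height-dependent scaling both HET calls ended, at -0.28 and -0.20, as they did in thinned libraries, at -0.47 and -0.43. The one upstream also ended without HET CC replicate 4 (-0.29, adjusted p = 0.0753).

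Tet2 (chr3:133463677-133545136, minus strand) had 10 peaks, of which 5 were higher in CC and 0 lower in HET, and 6 were higher and 1 lower in WT. The start peak (chr3:133544104-133544604, middle 36 bp downstream), which overlaps the printed window of repeated units, held 43.5, 42.1, 49.5 and 39.4 CPM in HET CC and 56.1, 44.5, 43.4 and 55.6 CPM in WT CC. It held 31.6, 32.3, 31.3 and 32.4 CPM in HET CB and 26.9, 32.3, 29.4 and 31.02 CPM in WT CB. Every CC library exceeded every CB library, with 0.44 ± 0.0775 (adjusted p = 2.01e-06) in HET and 0.74 ± 0.0866 (adjusted p = 1.28e-10) in WT. The flanking start peaks, 704 bp upstream and 686 bp downstream, rose by 0.32 in HET at the first and by 0.31 and 0.40 in WT at both, and the second missed the threshold in HET (0.23, adjusted p = 0.117) but passed without HET CC replicate 2 (0.42, adjusted p = 0.00322) and under the height-dependent scaling (0.49, adjusted p = 0.00102). Its WT call ended without WT CC replicate 1 or 3, and both WT calls ended in thinned libraries, at 0.30 and 0.37.

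Inside Tet2, 2 weak elements were also higher in CC. The element 18.9 kb from the start (chr3:133525214-133525714) held 5.85, 3.83, 4.91 and 2.64 CPM in HET CC and 2.5, 5.0, 4.51 and 4.1 CPM in WT CC. It held 1.69, 1.1, 1.57 and 1.59 CPM in HET CB and 1.59, 1.07, 1.4 and 1.75 CPM in WT CB. The groups did not overlap, and the difference was 1.52 ± 0.263 (adjusted p = 1.71e-06) in HET and 1.46 ± 0.31 (adjusted p = 5.57e-05) in WT. In thinned libraries the HET difference was 0.80 and no longer passed (adjusted p = 0.0773). Its neighbour at 25.4 kb differed by 0.69 ± 0.273 (adjusted p = 0.0256) in HET and 0.89 ± 0.305 (adjusted p = 0.0103) in WT, but by 0.05 in HET and 0.23 in WT under the height-dependent scaling, where it was not called, and it was lost without CC replicate 1 of either genotype.

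A cluster of 5 peaks lies 37 to 44 kb upstream of Tet2, beside the pseudogene Gm49316. Its tallest member (chr3:133582789-133583289, 38.6 kb upstream) averaged 53.4 ± 1.28 CPM in HET CC and 52.2 ± 5.12 CPM in WT CC. It averaged 43.2 ± 1.6 CPM in HET CB and 43.5 ± 2.0 CPM in WT CB and was higher in CC by 0.31 ± 0.0657 (adjusted p = 5.95e-05) in HET and 0.26 ± 0.0749 (adjusted p = 0.00204) in WT. Under the height-dependent scaling the WT difference was 0.04 (adjusted p = 0.637). The adjoining peak 38.0 kb upstream (chr3:133582141-133582641) held 15.5, 15.96, 14.5 and 20.6 CPM in HET CC and 12.8, 12.95, 9.58 and 10.95 CPM in WT CC. It held 16.3, 17.8, 16.9 and 17.5 CPM in HET CB and 15.6, 17.4, 18.01 and 16.3 CPM in WT CB. In WT it was lower in CC at -0.54 ± 0.139 (adjusted p = 0.000771), while in HET 3 CC libraries lay below the CB range and 1 above it, at -0.03 ± 0.107 (adjusted p = 0.807). Under the height-dependent scaling the WT difference was -0.24 (adjusted p = 0.146). The other 3 peaks of the cluster were called in neither genotype, but under that scaling the one 39.4 kb upstream was higher in both (0.34 in HET, 0.31 in WT) and the one 37.3 kb upstream in HET (0.27).

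**Figure D2:**
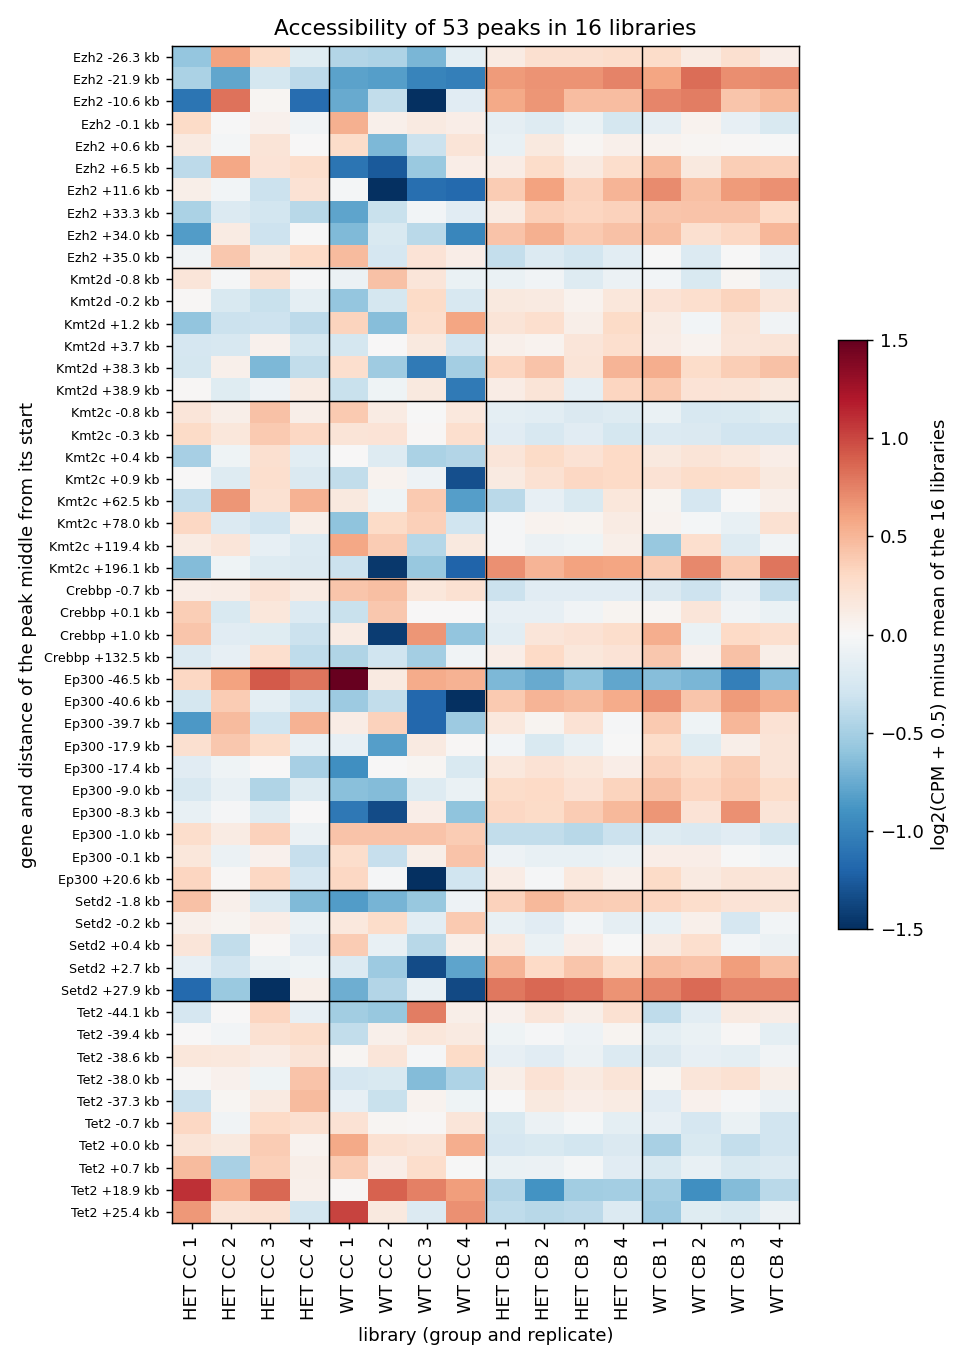
Accessibility of the 53 peaks (rows, by gene and distance from its start in kb) in the 16 libraries (columns, by group and replicate), as log2(CPM + 0.5) minus the mean of the peak over all libraries, red above and blue below that mean. The Tet2 rows from -0.7 to 25.4 kb are mostly red in the CC columns, and the distal rows of Setd2 are mostly blue there. Most distal rows of Ezh2 are blue in the WT CC columns, and the distal rows of Ep300 are mixed.

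Summed over all peaks of a gene, log2 differences between CC and CB ran from -0.28 to 0.24. Of the 7 loci, 2 were higher and 3 lower in HET, beside 62.8% of 15075 genes called, and 1 was higher and 3 lower in WT, beside 63.3% called. The Tet2 sum was 219, 203, 229 and 227 CPM in HET CC and 213, 202, 205 and 226 CPM in WT CC. It held 182, 187, 188 and 186 CPM in HET CB and 169, 183, 184 and 181 CPM in WT CB. Every CC library was above every CB library of its genotype, by 0.24 ± 0.0444 (adjusted p = 1.73e-05) in HET and 0.24 ± 0.0477 (adjusted p = 4.45e-05) in WT. How often sums separate in this way over all genes is not given here, for this locus or for those below. Kmt2c was higher in HET CC at 0.16 ± 0.0496 (adjusted p = 0.00425), a call that rested on replicate 3 (0.11, adjusted p = 0.053 without it), and was not called in WT at 0.05 ± 0.0547 (adjusted p = 0.46).

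The Ezh2 sum was 138, 150, 144 and 136 CPM in HET CC and 154, 114, 125 and 133 CPM in WT CC. It held 150, 159, 156 and 154 CPM in HET CB and 162, 164, 160 and 155 CPM in WT CB. It was lower in CC at -0.12 ± 0.0528 (adjusted p = 0.0422) in HET and -0.28 ± 0.0582 (adjusted p = 6.12e-05) in WT, with every CC library below its CB group. Kmt2d was lower at -0.22 ± 0.0604 (adjusted p = 0.00191) in HET and -0.22 ± 0.0673 (adjusted p = 0.00424) in WT, and Setd2 at -0.15 ± 0.0637 (adjusted p = 0.0424) in HET and -0.18 ± 0.0701 (adjusted p = 0.0245) in WT. The HET calls of Ezh2 and Setd2 lie near the threshold. That of Ezh2 ended without HET CB replicate 2, 3 or 4 or HET CC replicate 1, 3 or 4, and that of Setd2 without HET CB replicate 1 or 3 or HET CC replicate 2, 3 or 4. The Ezh2 call also ended with total counts as the scale (-0.09), in thinned libraries (-0.15), under the height-dependent scaling (-0.11) and with peaks within 10 kb (-0.03, adjusted p = 0.626). The Setd2 call ended under the same 4 settings (-0.11 to -0.14) and with DESeq2 (-0.14), and the HET call of Kmt2d in thinned libraries (-0.17, adjusted p = 0.0946). The WT call of Setd2 ended without WT CB replicate 2 (-0.14, adjusted p = 0.0887) or WT CC replicate 3 (-0.08, adjusted p = 0.289). Crebbp and Ep300 were called in neither genotype, with 0.13 ± 0.0656 (adjusted p = 0.0908) and 0.03 ± 0.0528 (adjusted p = 0.649) in HET and 0.16 ± 0.0729 (adjusted p = 0.0613) and -0.07 ± 0.0572 (adjusted p = 0.257) in WT. The Crebbp sum was called higher in CC in both genotypes with total counts (0.16 in HET, 0.18 in WT) and under the height-dependent scaling (0.16 in HET, 0.17 in WT). It also passed with DESeq2 in WT (adjusted p = 0.0409), without HET CC replicate 4 in HET and without WT CB replicate 1 or 3 in WT. The 7 sums cannot be ranked against each other as levels, because the number of peaks differs.

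**Figure D3:**
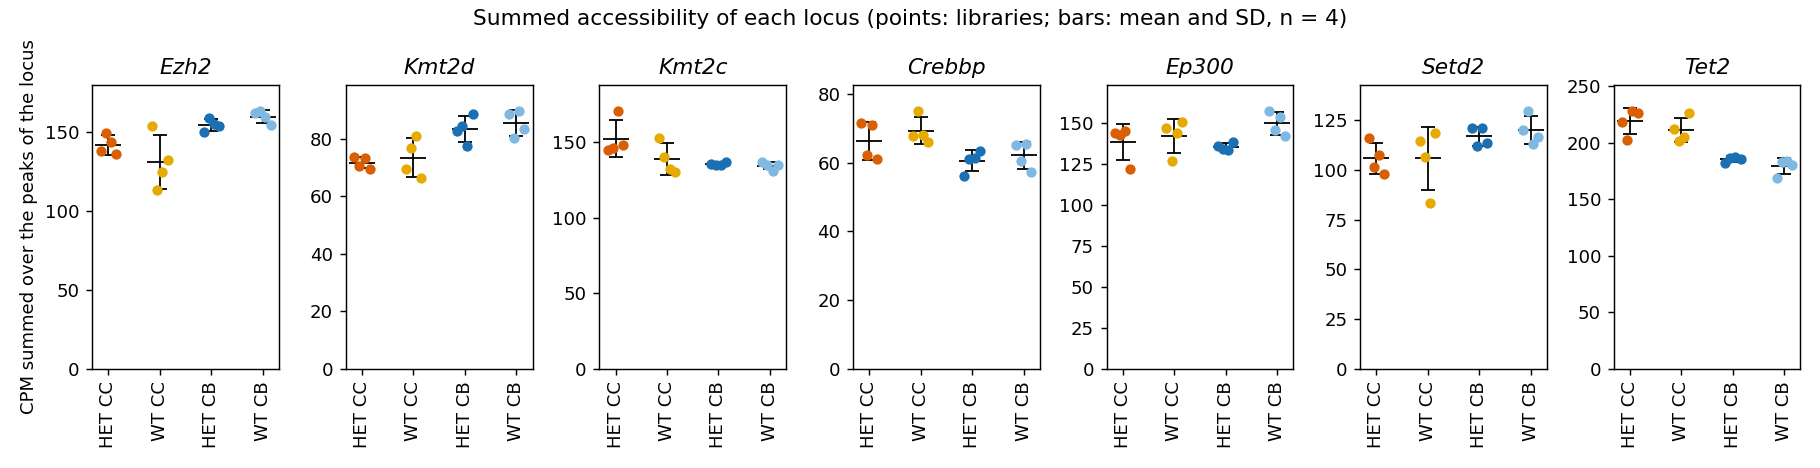
Accessibility summed over the peaks of each gene in CPM (vertical axes from 0, one scale per gene), with a point per library in HET CC, WT CC, HET CB and WT CB and bars for the mean and SD of 4 libraries. Within each genotype, CC points lie above CB points at Tet2 and below them at Ezh2, and genotypes overlap in CC at all 7 genes.

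The genotype comparison called none of the 53 peaks. In CB, HET differed from WT at 0 peaks, beside 0.129% of all peaks, with 1 peak at an unadjusted p under 0.05 beside 7.90% of all peaks. DESeq2 also called 0, beside 0.787% of all peaks. The differences ran from -0.22 to 0.22 on the log2 scale, and at all 53 peaks the 95% interval excluded a change of 1 log2 unit in either direction. The smallest adjusted p, 0.369, was at the Ep300 peak 1047 bp upstream, where the values given above did not overlap between HET CB and WT CB (-0.17). Values failed to overlap at 4 of 53 peaks, beside 8.53% of all peaks.

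In CC, HET differed from WT at 0 peaks, beside 2.06% of all peaks, and values did not overlap at 4, beside 5.60%, namely the Ezh2 element 21.9 kb upstream, 2 Ep300 peaks and the Tet2 peak 38.0 kb upstream. An unadjusted p under 0.05 was reached at 12 peaks, 9 higher and 3 lower, beside 8.51% higher and 8.68% lower (17.2% in all) over all peaks. DESeq2 called 6 of the 12, beside 5.66% of all peaks, with 4 higher in HET CC: the Ezh2 elements at 6.5 and 11.6 kb, the Ep300 element 40.6 kb upstream and the Tet2 peak 38.0 kb upstream. The 2 lower ones were the Kmt2d peak at 1.2 kb and the Ep300 peak 1047 bp upstream. The interval excluded a change of 1 log2 unit either way at 41 of the 53 peaks, so larger differences remain possible at 12. These intervals rest on 1 estimate of spread per peak, shared by the 4 groups. With only the CC libraries fitted, 186 peaks of the whole table were called instead of 1694, so the intervals in CC may be too narrow.

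The smallest adjusted p in CC, 0.0535, belonged to the Tet2 peak 38.0 kb upstream, at 0.53 with a 95% interval of 0.23 to 0.84 and no overlap between HET CC and WT CC. It passed without HET CC replicate 1 (adjusted p = 0.0390) or replicate 3 (adjusted p = 0.0285). At the Ep300 element 40.6 kb upstream, HET CC also lay wholly above WT CC, by 0.96 ± 0.304 (adjusted p = 0.0745). The 9 peaks that leaned higher in HET CC were all outside the start class, and all 9 were among the peaks called lower in CC in WT. That overlap shares the WT CC libraries and is not separate support. At the Tet2 start peak the lean was the other way, -0.20 ± 0.0944 (adjusted p = 0.252). Of the markers, 4 of 6 germinal center loci (S1pr2, Gcsam and Fas among them) were higher in HET CC than in WT CC, with 663 to 834 CPM summed over the 6 in HET CC and 537 to 610 CPM in WT CC. In turn, 4 of 8 measured T cell loci (Cd3d, Cd3g, Bcl11b and Cd5) were lower in HET CC. Over all genes, 6.66% were called between HET and WT in CC, in either direction. The part of the marker shift in the peak values above was not tested.

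The interaction sets the genotype difference in CC against the one in CB. It called 0 of 53 peaks, beside 0.159% of all peaks, with 10 at an unadjusted p under 0.05 beside 11.4%. DESeq2 called 4, beside 1.65% of all peaks, at the Ezh2 element at 11.6 kb, the Kmt2d peak at 1.2 kb, the Ep300 element 40.6 kb upstream and the Setd2 element at 2.7 kb. At locus level, HET differed from WT at 0 of 7 genes in CC (beside 6.66% of genes), in CB (0.551%) and in the interaction (0.411%). In each, 1 of the 7 had an unadjusted p under 0.05, and the share of all genes with such a p is not given here. The one in CB was Ep300, with 136, 134, 133 and 138 CPM in HET CB against 157, 145, 154 and 142 CPM in WT CB. These values did not overlap, and the difference was -0.14 ± 0.047 (adjusted p = 0.2), with an interval of -0.24 to -0.05. How often the sums of all genes fail to overlap is not given here, so this cannot be read as particular to Ep300. When only the CB libraries were fitted it passed, at an adjusted p of 0.0265, in a fit that called 3.20% of genes.

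**Figure D4:**
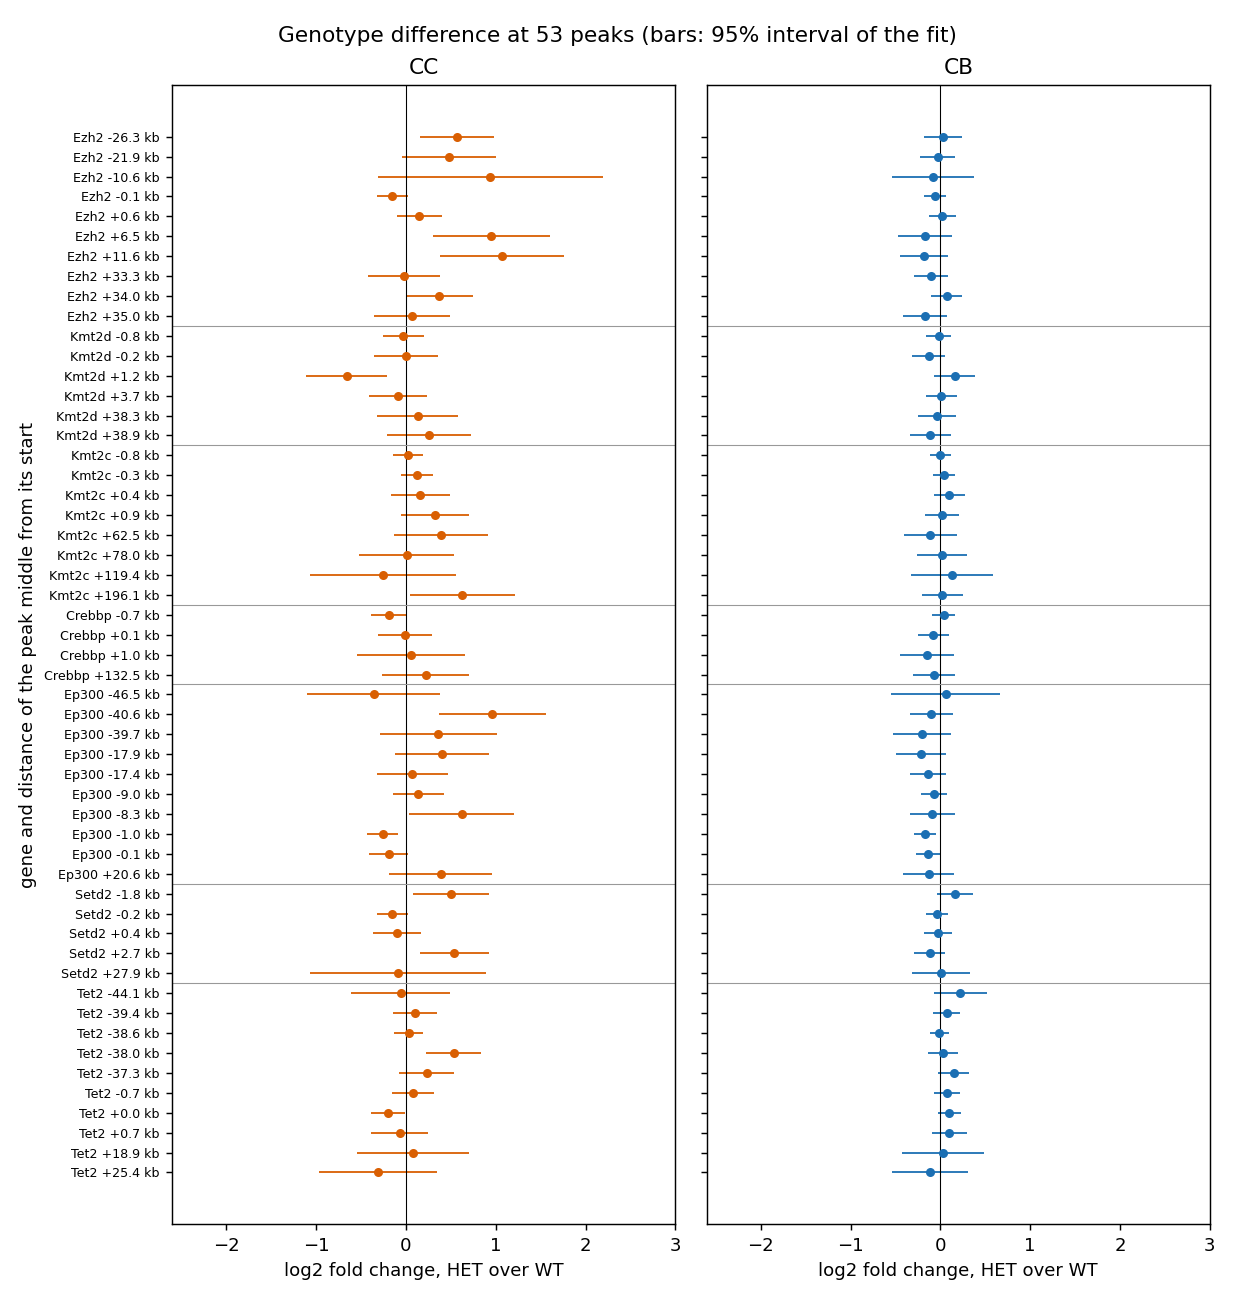
Log2 fold change of HET over WT (horizontal axes) at the 53 peaks (rows, by gene and distance from its start in kb) in CC at the left and in CB at the right, with bars for the 95% interval. In CB all points lie between -0.22 and 0.22, and in CC they run from -0.66 to 1.07 with wider bars.

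Other chromatin modifiers were read by the same locus sums, 56 of 60 listed genes having a peak. In HET, 20 were higher in CC and 18 lower, and in WT 22 were higher and 20 lower, beside 62.8% of all genes called in HET and 63.3% in WT. The median log2 difference was 0.08 in HET and 0.05 in WT, beside -0.003 and -0.009 over all genes. Among partners of Ezh2 in PRC2, Eed, the reader of the K27 mark, was higher in CC at 238 ± 11.9 CPM in HET CC, 256 ± 2.91 CPM in WT CC, 184 ± 3.17 CPM in HET CB and 190 ± 6.35 CPM in WT CB. Mtf2, which recruits PRC2 to CpG islands, was lower, at 132 ± 19.8 CPM in HET CC, 116 ± 7.82 CPM in WT CC, 257 ± 2.99 CPM in HET CB and 251 ± 8.93 CPM in WT CB (-0.95 in HET and -1.12 in WT on the log2 scale). In all, 3 of 9 measured PRC2 genes were higher and 3 lower in HET, and 2 higher and 4 lower in WT.

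Of 13 other KMT2 and COMPASS genes, 5 were higher and 3 lower in HET CC, and 7 higher and 2 lower in WT CC, among them Kmt2e (0.32 in HET, 0.45 in WT). Of 9 other acetyltransferase genes, 3 were higher and 4 lower in HET, and 4 and 4 in WT, with Kat6b at 0.65 in HET and 0.68 in WT and the coactivator Ncoa1 at -0.79 in HET and -1.04 in WT. Of 5 H3K36 methyltransferase genes, 3 were higher and 1 lower in each genotype, Nsd3 at 0.34 in HET and 0.48 in WT and Nsd2 at -0.45 in HET and -0.54 in WT. Of 9 DNA methylation genes, 4 were higher and 2 lower in HET and 3 and 3 in WT, and Idh1, whose product makes the cosubstrate of TET enzymes, was higher by 0.34 in HET and 0.40 in WT. Of 11 demethylase and deacetylase genes, 2 were higher and 5 lower in HET and 3 and 6 in WT, with Hdac2 at 0.59 in HET and 0.52 in WT and Kdm4a at -0.23 in HET and -0.34 in WT. By genotype, HET CC was higher than WT CC at 1 of the 56 loci, Ncoa1 (0.25 ± 0.0572, adjusted p = 0.00663). It was lower at 3 loci, Kmt2e, Kdm6a and Nsd3, beside 6.66% of all genes called in either direction. No listed locus was called in CB (beside 0.551% of all genes) or in the interaction (0.411%).

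The loci most like each member over the 16 libraries were found by the root mean square difference of centred log2 CPM among 9072 genes with at least 3 peaks. The closest to Ezh2 was Mtmr12 (0.0654, against a median of 0.212 over all genes), to Kmt2d Ubr2 (0.0545), to Kmt2c Sbds (0.0628) and to Crebbp Lasp1 (0.0546). Closest to Ep300 was Myo1c (0.0556), to Setd2 the B cell receptor inhibitor Cd22 (0.0695) and to Tet2 Mospd1 (0.0541). None of the 7 was the closest match of another member, which says little because each match was picked from 9072 genes.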

How the data were processed

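Omni-ATAC was run on 16 libraries, 4 in each of HET CC, WT CC, HET CB and WT CB. The authors deposited 1 table of raw counts per library at 82188 peaks, each 501 bases wide, in mm10 coordinates. FastQC, BWA and deepTools, with R 4.2.1 and build mm10, are listed in the submitters' processing notes, and the peak caller and counter are not given in the sources used here. Totals were 3494356 to 51011923 counts, lower in CC, and the 95% intervals of HET against WT were wider in CC than in CB.

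Peaks were assigned to the nearest protein-coding RefSeq gene of the GRCm38.p6 gene table, at most 50 kb away, which placed 74773 peaks (91.0%) at 15075 of 21900 genes. The counts were fitted with edgeR 4.0.16 in R 4.3.3 (TMM scaling, robust quasi-likelihood test, all 4 groups in 1 fit). This was done for peaks and for sums over each gene's peaks. A run on simulated data gave every peak and group the same spread, which need not hold here. That run scored neither CC against CB in HET nor the interaction, and it is not used as support. The filter on low counts removed 0 peaks. DESeq2 1.42.0, other scalings, filters and distances, thinned libraries, a replicate block and leaving out each library were alternatives. Peaks named with every library are the one nearest to each start and the largest called rise and fall per gene and comparison, and other peaks were described after their values were seen. The members, gene lists and tests were chosen with earlier results of these data known. With no genome at hand, sequences of distal peaks were not analysed here.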

Additional observations from a re-analysis of the deposited data

Results flagged for a closer look

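In each result below, 1 library lay far from the other 3 of its group by Dixon's criterion. This held for 7 of 104 groups tested, and chance flags about 1 in 20.

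At locus level, the Kmt2c sum was 171.0 CPM in HET CC replicate 3, against 144.9 to 148.3 CPM in the other HET CC libraries, and the Ep300 sum was 121.5 CPM in HET CC replicate 4, against 142.8 to 144.8 CPM. The Ezh2 start peak was at 80.04 CPM in WT CC replicate 1, where the other WT CC libraries had 58.0 to 60.6 CPM. At the Ep300 element 46.5 kb upstream, the same library had 7.5 CPM against 1.77 to 2.54 CPM in the other 3, and WT CB replicate 3 had 0.51 CPM against 0.78 to 0.83 CPM. The Crebbp peak 701 bp upstream had 25.09 CPM in HET CB replicate 1, against 27.78 to 27.95 CPM. The Setd2 element at 27.9 kb had 4.33 CPM in WT CB replicate 2 against 3.99 CPM in each of the other 3.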

How the results depend on the processing

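The 37 called values of named peaks and genes were recomputed under the alternatives. Leaving out 1 library gave 592 values, of which 569 kept their call, 23 lost it and 0 changed sign. The other settings gave 399, of which 370 kept it, 28 lost it and 1 changed sign. Those lost included 11 in thinned libraries and 10 under the height-dependent scaling, which was chosen after seeing the data. The sign changed at the Setd2 start peak in WT (-0.02). The cause was not tested. Not every setting could move a call, and the 370 include such values. Fits without the filter used the same 82188 peaks, and a stricter filter kept 82177. With the 10 kb limit, peaks kept their main values and only gene sums were fitted anew. Member peaks called between HET and WT in CC numbered 1 with total counts as the scale, 6 with DESeq2 and 0 to 3 without 1 library, and in the interaction 4 with DESeq2. Member peaks called between CC and CB numbered 32 to 37 in WT and 25 to 32 in HET without 1 library, and 24 in WT and 19 in HET in thinned libraries, which hold fewer counts. Member genes called between CC and CB numbered 3 to 5 in WT and 2 to 5 in HET without 1 library, and in HET 2 in thinned libraries and 3 with peaks within 10 kb. Between HET and WT, 1 gene was called in CB when only the compared groups were fitted (Ep300), and 0 to 1 in CC without 1 library (Ezh2 without WT CC replicate 1). Over all 82188 peaks, HET against WT called 106 in CB (647 with DESeq2, 1076 with only the compared groups, 0 thinned) and 1694 in CC (4650, 186 and 811), and with total counts the CC calls divided into 1168 higher and 490 lower, against 889 and 805. The interaction called 131 (1352 with DESeq2, 270 with total counts, 7 thinned, 29 with the replicate block). Deviations of same-numbered libraries correlated at -0.12 to 0.074, all below 0.1. Between CC and CB they correlated at 0.029 to 0.038 in WT, beside -0.036 to 0.032 for differently numbered libraries. In HET the values were 0.029 to 0.074, beside -0.067 to 0.052. Whether CC and CB of a number share an animal is not stated, and the main fit did not pair them. With a replicate block, 35 member peaks were called between CC and CB in WT and 26 in HET, and 45 of all peaks between HET and WT in CB. The median width of the 95% interval of HET against WT was 0.81 log2 units in CC, where depth was lower, against 0.38 in CB. These widths use 1 estimate of spread per peak for all 4 groups, and the part of depth in them was not tested.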
